A study of Mus musculus with 4 samples.

Results

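The genes described here are the ubiquitin-conjugating enzymes and deubiquitinases of sorted mouse CD4+ T cells. They were chosen by a rule on gene names, which was set with earlier results of these data known. They are the symbols of the deposited rlog table (a log2-type transformation of the counts) that begin with Ube2, with Usp followed by a number, with Otu or with Uch, leaving out Usp1 and Usp18. Of 9546 symbols in that table, 79 met the rule: 30 Ube2, 39 Usp, 8 Otu and 2 Uch symbols. All 79 matched 1 gene identifier of the count table and all were tested. A further 38 symbols of these families had fewer than 10 counts over the 4 libraries, and 29 of them had none. They were not tested, and the highest of them were Otud1 with 9 counts and Ube2v1 and Usp27x with 6 each. The anaphase enzymes Ube2c and Ube2s are described apart from the other 77. A few symbols fit the names without the function: Ube2d-ps is annotated as a pseudogene, Usp6nl encodes a GTPase-activating protein for Rab5, and Usp39, Usp50 and Otulinl are related to deubiquitinases but lack their protease activity.

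The study compared T cells that had switched on Il10 with T cells that had not, after a single tolerising dose of peptide. Mice of the Tg4 line carry a T cell receptor transgene specific for myelin basic protein (MBP) peptide, the Nr4a3-Tocky reporter, in which T cell receptor signalling drives the fluorescent Timer protein, and an Il10-EGFP reporter. They received 4 mg/kg of the altered peptide [4Y]-MBP under the skin, and spleens were taken 24 h later. CD4+ Timer+ cells were sorted into Il10-EGFP+ and Il10-EGFP- T cells, so both groups carried the same alleles, had received the same peptide and had recently signalled through their receptor. EGFP alone separates the groups, and no untreated or Timer- library belongs to this comparison. The age of the mice for these libraries is not given in the sources used here. Each group had 2 libraries, described by the submitters as from replicate mice. A further replicate pair was set aside by the authors as an outlier and was not analysed here. With 2 libraries a group, p-values rest on the spread between these libraries only. In the edgeR fit used below, that spread was estimated largely from all genes together (52.22 prior degrees of freedom), not from each gene alone.

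Ubiquitin is a small protein that is attached to other proteins in 3 steps: an E1 enzyme activates it, an E2 conjugating enzyme carries it, and an E3 ligase passes it to the target. The type of chain built decides what follows. Chains linked through lysine 48 or lysine 11 send proteins to the proteasome, whereas chains linked through lysine 63 or through the first methionine assemble signalling complexes, among them those that activate NF-κB downstream of the T cell receptor. Deubiquitinases, the Usp, Otu and Uch families, remove or trim these chains. In dividing cells the anaphase-promoting complex, a large E3 ligase, uses Ube2c to place the first ubiquitins on cyclin B and securin and Ube2s to lengthen the chains through lysine 11.

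The libraries were of similar depth, with 644679 to 730330 counts each. A minimum of 10 counts summed over all libraries left 9608 genes, which were tested with the quasi-likelihood test of edgeR, and genes with a Benjamini-Hochberg adjusted p under 0.05 were called. Of all genes tested, 2.35% were called higher in Il10-EGFP+ cells and 1.74% lower. As the sort required, Il10 was at 0 counts in each Il10-EGFP- library, and at 29 and 41 in Il10-EGFP+ cells. From here on, a pair of values against another pair gives replicates 1 and 2 of Il10-EGFP- against replicates 1 and 2 of Il10-EGFP+ cells. All 11 CD4 T cell markers examined were detected, at a summed 3674 to 4484 counts-per-million of the library total (CPM). Of them, 1 (Trac) was called higher. Genes of other cells were also present, some of them at higher levels in Il10-EGFP+ libraries. The 10 B cell markers summed to 138.3 and 224.2 against 550.7 and 592.7 CPM, with none at 0, and 4 of 8 tested were called higher. The 10 myeloid markers summed to 106.8 and 136.9 against 370.7 and 197.1, with Cd14 and Adgre1 at 0, and 2 of 8 tested were called higher. The 8 CD8 and NK markers, with Ncr1 at 0, summed to 38.3 and 64.1 against 45.0 and 68.6, with 0 of 4 tested called. The part of these cells in the values below was not tested. In these bulk libraries, fewer cells of a type and less RNA per cell cannot be told apart.

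Ube2c stood out among the conjugating enzymes. Its Il10-EGFP- libraries held 43 and 22 counts, compared with 87 and 73 for Il10-EGFP+ cells, or 58.4 and 32.1 against 137.9 and 105.3 CPM after scaling by the trimmed mean of M-values (TMM-scaled CPM, the level used from here on). The groups did not overlap, although the 2 Il10-EGFP- libraries themselves were far apart. The mean level was 45.2 ± 18.6 CPM (SD, n = 2) in Il10-EGFP- and 122 ± 23.0 CPM (SD, n = 2) in Il10-EGFP+ cells, a fitted 2.65-fold difference. Its log2 fold change was 1.41 with a standard error (SE) of 0.26 and a 95% interval of 0.88 to 1.94 (edgeR, adjusted p = 0.00031). It was called under all 11 alternative settings without a replicate term, with adjusted p between 2.79e-05 and 0.0323. The gene lies at chr2:164769898-164778822 on the plus strand of GRCm38, where its exons overlap Tnnc2 on the opposite strand, which had 0 counts in every library. The log2 fold change ranged from 1.05 to 1.91 when each library was left out in turn, and was 0.51 on the compressed rlog scale.

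Ube2s, the partner that extends the chains, was barely detected. It had 11 and 3 against 5 and 8 counts, that is 14.9 and 4.38 against 7.92 and 11.5 CPM. The groups overlapped fully, and Il10-EGFP- replicate 1 and replicate 2 were the highest and the lowest of the 4. The log2 fold change was 0.00 with an SE of 0.74 and a 95% interval of -1.49 to 1.49 (edgeR, adjusted p = 1.0). An interval this wide includes the change seen in Ube2c, so a change of that size was not detectable for Ube2s at this depth. Ube2s also shares exon positions with the ribosomal gene Rpl28 on the opposite strand, which had 77 to 99 counts, and whether the counting used the strand is not given in the sources used here.

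The promoters of the pair are shown because many genes of mitosis carry CCAAT boxes, bound by the factor NF-Y, and a cell cycle homology region with the letters TTTGAA close to the start. The lines give the 250 bases before the RefSeq transcription start on the sense strand (GRCm38.p6), 5′ to 3′, with every match to CCAAT or TTTGAA on either strand in capitals. On the reverse strand they read ATTGG and TTCAAA.
Ube2c (chr2:164769679-164769928, plus strand): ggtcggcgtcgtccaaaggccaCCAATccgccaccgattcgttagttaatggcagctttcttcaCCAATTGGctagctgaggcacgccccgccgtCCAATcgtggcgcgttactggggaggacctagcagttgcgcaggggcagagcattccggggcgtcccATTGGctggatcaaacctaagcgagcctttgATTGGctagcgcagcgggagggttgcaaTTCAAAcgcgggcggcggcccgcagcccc
Ube2s (chr7:4812341-4812590, minus strand): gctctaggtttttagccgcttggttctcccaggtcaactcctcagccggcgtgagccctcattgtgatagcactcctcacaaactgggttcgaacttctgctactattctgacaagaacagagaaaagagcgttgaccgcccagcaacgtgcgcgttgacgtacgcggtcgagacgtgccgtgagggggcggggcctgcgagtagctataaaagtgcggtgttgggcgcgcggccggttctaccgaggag
The Ube2c window held 6 matches to CCAAT, beginning at -228, -186, -183, -155, -88 and -57 from the start, and 1 match to TTTGAA on the reverse strand at -29. The matches at -186 and -183 overlap on opposite strands. The Ube2s window held neither motif. Over the windows of 300 bases (250 before to 50 after the start) of the 27025 RefSeq genes searched, 37.9% held CCAAT, 18.1% held TTTGAA, 7.12% held both and 1.14% held 4 or more CCAAT. Of 62 members with a promoter listed, 19.4% held CCAAT, 9.68% held TTTGAA and 3.23% held both, which is below the share of all genes. Among 16 promoters of G2/M markers, 87.5% held CCAAT and 62.5% held both motifs. A match gives letters only and says nothing about binding.

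The other genes of the anaphase step were examined as a list. Of 17 genes of the anaphase-promoting complex and its regulators, 2 were called higher and 0 lower, against 2.35% and 1.74% of all genes tested. Their median log2 fold change was 0.07 against 2.54e-05 over all genes tested. With no adjustment, 4 of the 17 (23.5%) had p under 0.05 in edgeR, all higher, against 15.5% of all genes. Anapc13, a small structural subunit, had 30 and 22 against 40 and 57 counts (log2 fold change 1.00, edgeR adjusted p = 0.0432), but it was not called by DESeq2 (adjusted p = 0.4216), nor by edgeR with library size only (adjusted p = 0.05558), with no filter (adjusted p = 0.0507), or without any of 3 libraries in turn: Il10-EGFP+ replicate 2 (adjusted p = 0.3649), Il10-EGFP- replicate 1 (adjusted p = 0.0781) or Il10-EGFP- replicate 2 (adjusted p = 0.2398). Fbxo5, known as Emi1, is an inhibitor of the complex rather than a subunit. It had 35 and 55 against 88 and 106 counts (log2 fold change 1.20, edgeR adjusted p = 0.000507; DESeq2 adjusted p = 0.04064). It was called under every alternative but the fit without Il10-EGFP- replicate 1 (edgeR, log2 fold change 0.86, adjusted p = 0.06827). The 2 activators were not called: Cdc20 had 48 and 45 against 68 and 59 counts (log2 fold change 0.55, edgeR adjusted p = 0.251), and Fzr1 had 24 and 40 against 41 and 38 counts. Otud7b, the deubiquitinase known for cutting lysine 11 chains and a member described again below, had 41 and 18 against 38 and 45 counts (log2 fold change 0.60, edgeR adjusted p = 0.363).

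Markers of the G2 and M phases were higher in the same libraries as Ube2c. Of 19 tested, edgeR called 13 higher and 0 lower, against 2.35% and 1.74% of all genes tested, and DESeq2 called 11. The median log2 fold change of the 19 was 1.00. In 18 of 19 the Il10-EGFP+ values were above the Il10-EGFP- values with no overlap, against 22.3% of all genes. The 20 listed markers, of which none was at 0, summed to 3227 and 3091 against 6192 and 5960 CPM of the library total. The value of Ube2c, 1.41, lay inside the marker range of -0.01 (Ccnb1) to 1.81 (Hmmr). Of 16 S phase markers, 1 was called higher and 0 lower, with a median of 0.05. The part of the G2 and M phase genes in the Ube2c result was not tested.

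**Figure D1:**
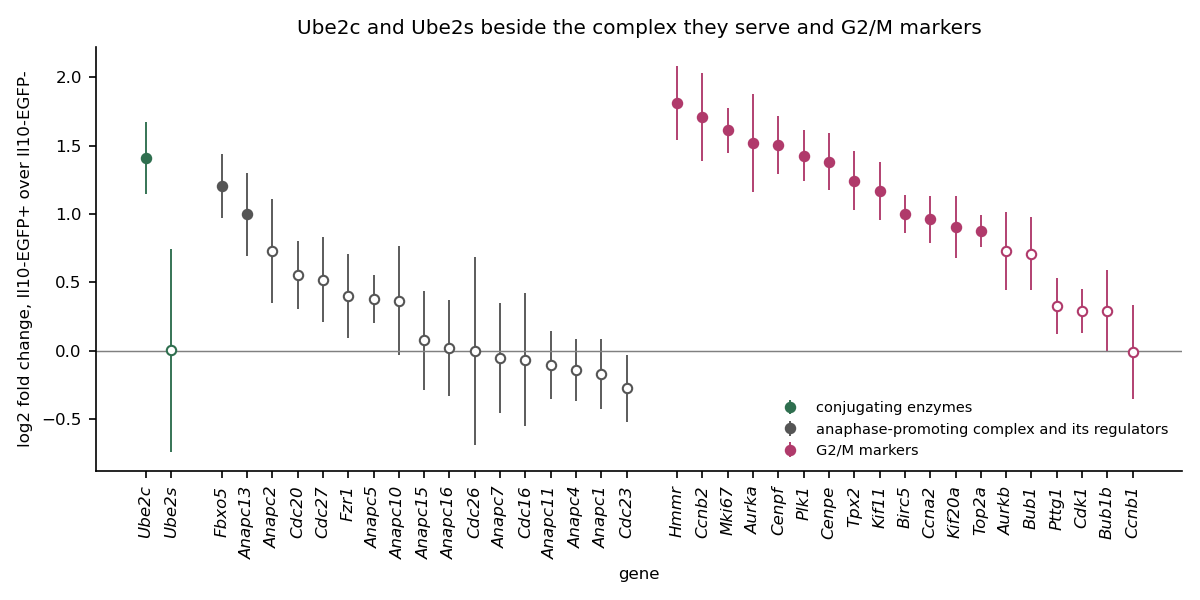
Log2 fold change (Il10-EGFP+ over Il10-EGFP-) with its SE as bars, for Ube2c and Ube2s, 17 genes of the anaphase-promoting complex and its regulators, and 19 G2/M markers. Filled points were called by edgeR and open points were not: Ube2c at 1.41 is filled like 13 of the 19 markers, while Ube2s at 0.00 and 15 of the 17 genes of the complex are open.

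Of the other 77 members, 0 were called higher, 1 (Usp10) was called lower and 76 were not called. Over all 79 this makes 1.27% called higher and 1.27% called lower, against 2.35% and 1.74% of all genes tested. With no adjustment, 10 of 79 members (12.7%) had p under 0.05, against 15.5% of all genes. Of them, 3 (3.80%) were higher and 7 (8.86%) lower, against 7.96% and 7.49% of all genes. The Il10-EGFP+ values were above the Il10-EGFP- values without overlap for 9 members (11.4%, against 22.3% of all genes) and below them for 16 members (20.3%, against 22.3%). DESeq2 called 1 member, Ube2c, and 1.17% of all genes. It gave no adjusted p for 27 members, and among those with a value it called 1 of 52 members (1.92%) and 112 of 5324 genes (2.10%).

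The median log2 fold change of the 77 was -0.00091, beside 2.54e-05 over all genes, with an interquartile range of -0.30 to 0.11. Of the 77, 39 had a log2 fold change of less than 0.25 in either direction. The log2 fold change without its sign had a median of 0.24 over the 79 members and of 0.34 over all genes. The members were more abundant than other genes, with a median level of 45.5 CPM against 31.0 CPM, and 32 of the 79 had a mean of fewer than 20 counts. Precision followed level: among the 17 members at 100 CPM or more the SE was 0.138 to 0.219, and among the 23 under 20 CPM it was 0.489 to 1.03.

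**Figure D2:**
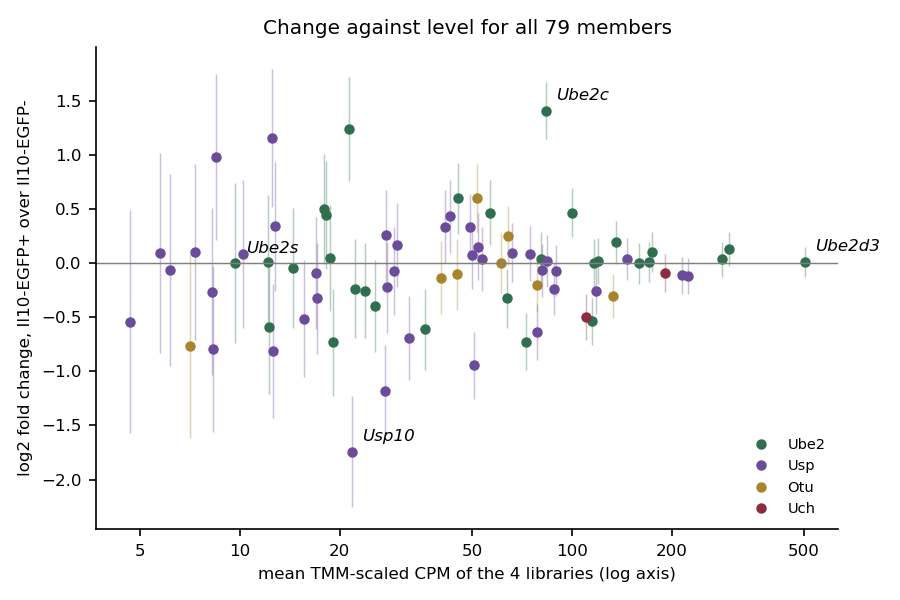
Log2 fold change (Il10-EGFP+ over Il10-EGFP-, bars show the SE) of all 79 members against their mean TMM-scaled CPM on a log axis, coloured by family. Members at 100 CPM or more lie between -0.54 and 0.19, Ube2c at 83.4 CPM and Usp10 at 21.7 CPM lie farthest above and below 0, and the bars widen to the left.

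Among the 28 other Ube2 symbols, edgeR and DESeq2 called 0, and 4 (14.3%) had an unadjusted p under 0.05, close to the 15.5% of all genes. Reads came from the 3′ ends of transcripts, so levels of different genes were compared as CPM with no division by length. Of the general-purpose enzymes, Ube2d3, which works with a broad range of E3 ligases and places first ubiquitins as well as chains, was the highest of all 79. It stood at 510 and 489 against 501 and 508 CPM, and the groups overlapped. Its log2 fold change was 0.01 with a 95% interval of -0.26 to 0.29. Without overlap, the Il10-EGFP+ values lay above for 22.3% of all genes and below for 22.3%. All 5 members of the Ube2d and Ube2e subfamilies overlapped between the groups, with log2 fold changes of 0.01 to 0.47. Their summed level was 761.5 and 767.5 against 771.7 and 810.8 CPM, without overlap. The highest log2 fold change was that of Ube2e3, with 40 and 28 against 29 and 59 counts.

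Chain-building enzymes came next in abundance. Ube2r2, a Cdc34 relative that lengthens lysine 48 chains on cullin-RING ligases, stood at 293 and 274 against 344 and 280 CPM (log2 fold change 0.13). Ube2k, which also builds lysine 48 chains, stood at 319 and 241 against 279 and 296 CPM (0.04), and Ube2q1 at 156 and 180 against 192 and 169 CPM (0.10). The groups overlapped for all 3, and none was called. Ube2h, the conjugating enzyme of the CTLH ligase, was lower in abundance, with 22 and 29 against 41 and 31 counts. Both its Il10-EGFP+ values lay above the Il10-EGFP- values, the log2 fold change was 0.60 with an SE of 0.33, and it was not called (edgeR, adjusted p = 0.392). Of the last 500 bases of its transcripts, 29.8% of 50-base stretches also occur in other genes, chiefly Gm2058. Reads from these stretches may be missing from its counts. Of the 9 enzymes without a narrower role (these 4 with Ube2l3, Ube2o, Ube2q2, Ube2w and Ube2z), 0 were called and 8 overlapped between the groups. Over all genes, 22.3% were above and 22.3% below without overlap.

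None of the 4 conjugating enzymes linked to protein degradation at the endoplasmic reticulum was called, and the groups overlapped for 2 of them. For the other 2 the Il10-EGFP+ values were below without overlap, as for 22.3% of all genes. Ube2g1, Ube2g2, Ube2j1 and Ube2j2 together summed to 431.6 and 410.0 against 337.5 and 343.4 CPM, with no test of this sum. Ube2g1, a soluble enzyme that also lengthens chains on cullin-RING ligases, had 59 and 69 against 41 and 31 counts (log2 fold change -0.72, SE 0.27; edgeR, adjusted p = 0.117). Ube2j2, anchored in the reticulum membrane, had 113 and 81 against 64 and 60 counts (-0.54, SE 0.21; edgeR, adjusted p = 0.171). For both genes the groups did not overlap. The remaining pair overlapped: Ube2j1, the other membrane-anchored enzyme, stood at 182 and 159 against 152 and 190 CPM (0.01), and Ube2g2 had 12 and 22 against 12 and 15 counts. Of the last 500 bases of Ube2j2 transcripts, 17.3% of 50-base stretches occur in other genes, and for Ube2g1 and Ube2j1 none do.

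No enzyme of lysine 63 chains and DNA repair was called. Ube2n and Ube2v2 form a dimer that builds lysine 63 chains for DNA damage tolerance. Ube2n had 18 and 19 against 11 and 18 counts (log2 fold change -0.25), and Ube2v2 had 18 and 16 against 7 and 12 counts (-0.73, SE 0.49; edgeR, adjusted p = 0.523). The Ube2v2 values did not overlap, yet they rest on few counts. Ube2a and Ube2b, the mouse forms of yeast Rad6, had 53 and 66 against 64 and 90 counts (0.47; edgeR, adjusted p = 0.309) and 115 and 111 against 87 and 124 counts (0.00). Ube2t, of the Fanconi anaemia repair pathway, had 13 and 9 against 10 and 18 counts.

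The conjugating enzymes for NEDD8 pointed in opposite directions, and neither was called. Ube2m, 1 of 2 conjugating enzymes for NEDD8, the modifier that activates cullin-RING ligases, had 11 and 7 against 16 and 24 counts. The groups did not overlap, the log2 fold change of 1.24 with an SE of 0.48 was the highest among members after that of Ube2c, and it was not called (edgeR, adjusted p = 0.144). Its counterpart Ube2f had 52 and 49 against 35 and 40 counts, also without overlap but in the opposite direction (-0.33, SE 0.27; edgeR, adjusted p = 0.637).

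**Figure D3:**
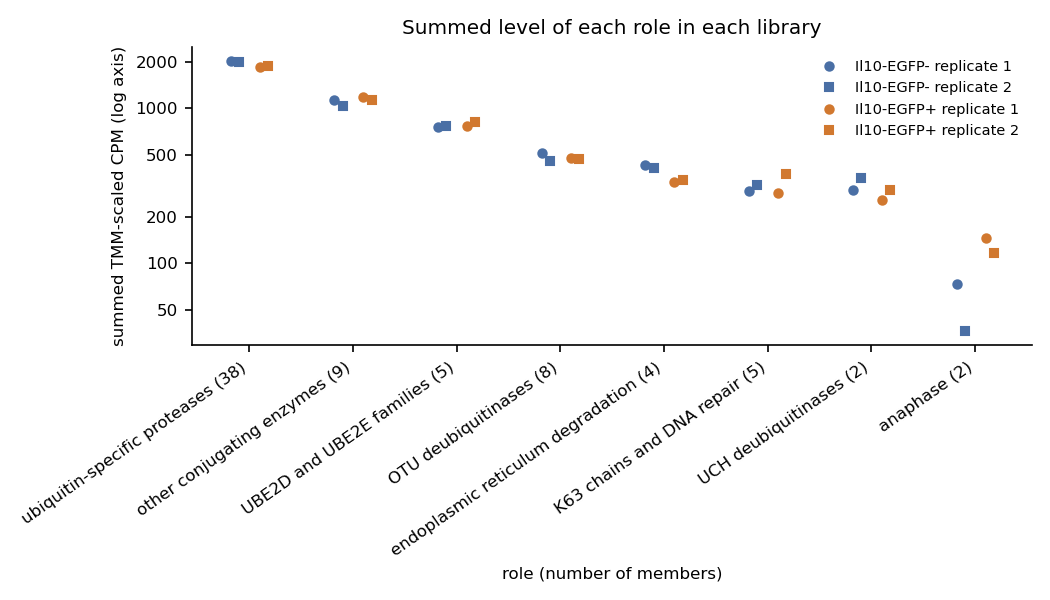
Summed TMM-scaled CPM on a log axis for 8 roles, 1 point per library, with the number of members in brackets. The Il10-EGFP+ points lie wholly above the Il10-EGFP- points for the anaphase pair (145.8 and 116.9 against 73.3 and 36.5) and, by a narrow margin, the Ube2d and Ube2e subfamilies, and wholly below for the ubiquitin-specific proteases, the endoplasmic reticulum enzymes and, at 295.9 and 356.0 against 255.1 and 295.7 with almost no gap, the UCH pair.

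Among the 39 Usp symbols, 1 was called lower and 0 higher, and the family's median log2 fold change was -0.07. Without overlap, the Il10-EGFP+ values were below for 9 symbols (23.1%) and above for 3 (7.69%), against 22.3% of all genes in each direction. The summed level was 2043 and 2000 against 1855 and 1888 CPM, a small gap that was not tested.

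Usp10 was the only member among the deubiquitinases that edgeR called. The gene lies at chr8:119910360-119957560 on the plus strand of GRCm38. There its exons overlap Gm20388 on the same strand, which had 0 counts in every library. How reads in exons shared by 2 genes were counted is not given in the sources used here. The Usp10 product removes ubiquitin from p53 among other targets and binds the stress granule protein G3BP1. Usp10 had 14 and 33 against 7 and 6 counts, that is 19.0 and 48.1 against 11.1 and 8.66 CPM. The Il10-EGFP+ values lay below the others, and Il10-EGFP- replicate 2 stood far above the other 3. The mean levels were 33.6 ± 20.6 and 9.87 ± 1.72 CPM (SD, n = 2 each), a fitted 3.35-fold lower level in Il10-EGFP+ cells (log2 fold change -1.74, SE 0.51, 95% interval -2.77 to -0.71; edgeR, adjusted p = 0.0376). The call rested on single libraries. Leaving out Il10-EGFP- replicate 2 brought it to -0.94 (edgeR, adjusted p = 0.6445), and it was also not called without Il10-EGFP+ replicate 1 (adjusted p = 0.08004) or replicate 2 (adjusted p = 0.1876). DESeq2 gave Usp10 no adjusted p.

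The next deubiquitinases by p missed the threshold. Usp31 had 45 and 50 against 21 and 25 counts, with tight pairs that did not overlap (log2 fold change -0.94, SE 0.31; edgeR, adjusted p = 0.0709), and it passed when the replicate number was added as a block (adjusted p = 0.0464). Usp21, which removes ubiquitin from histone H2A, had 27 and 27 against 13 and 9 counts (-1.18, SE 0.42; edgeR, adjusted p = 0.105). Usp36, a nucleolar enzyme needed for making ribosomes, had 80 and 56 against 48 and 33 counts (-0.63, SE 0.26; edgeR, adjusted p = 0.188). All 3 pairs of groups were apart. Usp45, linked to repair of DNA by the nuclease ERCC1, had 28 and 29 against 9 and 24 counts, so its 2 Il10-EGFP+ libraries were far apart (-0.69; edgeR, adjusted p = 0.415).

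None of the 5 most abundant Usp members was called. Usp7, which stabilises Mdm2, p53 and, in regulatory T cells, Foxp3, stood at 225 and 241 against 206 and 224 CPM (log2 fold change -0.12, 95% interval -0.45 to 0.22). Usp34, a regulator of axin in Wnt signalling, stood at 216 and 229 against 182 and 228 CPM (-0.11), and Usp16, a histone H2A deubiquitinase, at 155 and 134 against 165 and 133 CPM (0.04). The groups overlapped for Usp34 and Usp16, and the Usp7 values were apart by a narrow margin. Usp39, the splicing factor without protease activity, had 105 and 78 against 60 and 83 counts (-0.25, 95% interval -0.68 to 0.17), and Usp25 had 70 and 60 against 61 and 54 counts (-0.07). Usp16 shares exon positions with Cct8 on the opposite strand, which had 464 to 692 counts.

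**Figure D4:**
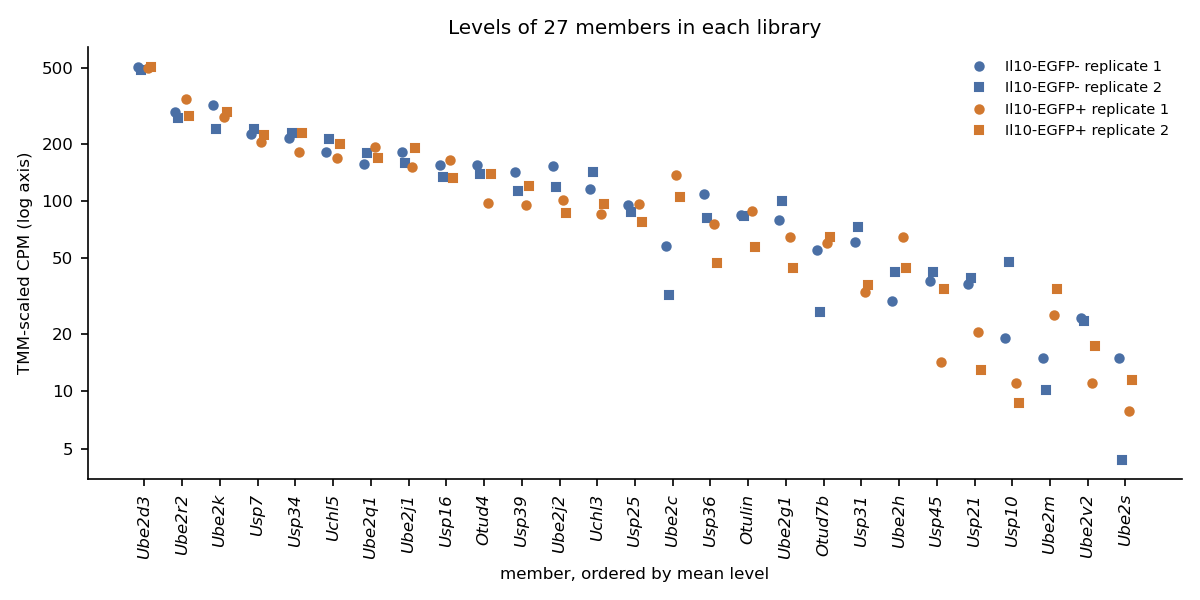
TMM-scaled CPM on a log axis of 27 members in each of the 4 libraries, ordered from the highest mean level to the lowest. The points of Ube2d3 coincide near 502 CPM, the Il10-EGFP+ points of Ube2c stand above its Il10-EGFP- points, those of Usp10, Usp21 and Usp31 stand below, and the 4 points of Ube2s are spread from 4.38 to 14.9 CPM.

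None of the 8 Otu members was called by edgeR or DESeq2, 0 had an unadjusted p under 0.05, and their median log2 fold change was -0.12. Otud4, the most abundant, had 114 and 95 against 62 and 96 counts (-0.30, SE 0.20; edgeR, adjusted p = 0.525). In CPM its 2 Il10-EGFP+ values, 98.2 and 138.5, lay below the Il10-EGFP- values of 154.7 and 138.6, with almost no gap between the replicate 2 values. Otulin, which cuts the linear chains that the LUBAC ligase builds in NF-κB signalling, stood at 84.2 and 83.2 against 88.7 and 57.7 CPM (-0.20), with overlap. Otud7b, which acts on lysine 11 chains and on TRAF3 and Zap70 in signalling, stood at 55.6 and 26.3 against 60.2 and 64.9 CPM. Its Il10-EGFP- replicate 2 was lower than the other 3, and without that library the log2 fold change was 0.17. The other 5, Otub1, Otud3, Otud5, Otud6b and Otulinl, ranged in log2 fold change from -0.77 (Otud3, 10 and 3 against 2 and 5 counts) to 0.25 (Otulinl).

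Of the 2 Uch members, neither was called by edgeR or DESeq2, and 1 had an unadjusted p under 0.05. Uchl5, a deubiquitinase of the proteasome and of the INO80 complex, was the sixth most abundant of all members, with 180 and 213 against 170 and 199 CPM, and the groups overlapped (log2 fold change -0.09, 95% interval -0.45 to 0.27). Uchl3, which frees ubiquitin and NEDD8 from small adducts, had 85 and 98 against 54 and 67 counts without overlap (-0.50, SE 0.22; edgeR, adjusted p = 0.232). Of the last 500 bases of Uchl3 transcripts, 12.8% of 50-base stretches also occur in other genes, chiefly its copy Uchl4. Usp14, the other deubiquitinase that docks on the proteasome, had 81 and 55 against 56 and 51 counts and overlapped.

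**Figure D5:**
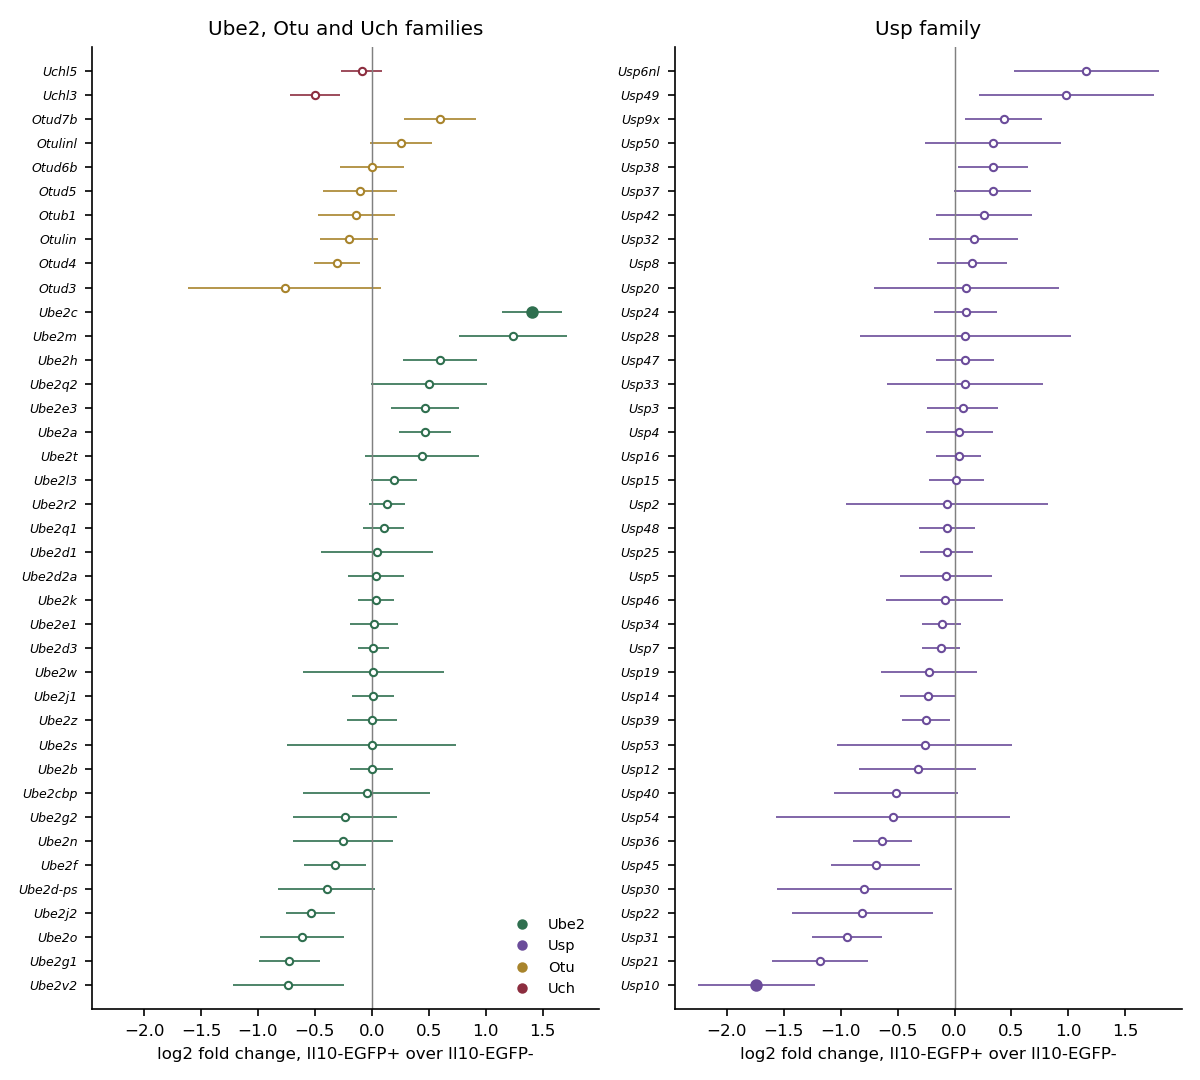
Log2 fold change (Il10-EGFP+ over Il10-EGFP-) with its SE as bars for 78 of the 79 members, Ube2, Otu and Uch symbols at left and Usp symbols at right. The 2 filled points, Ube2c at 1.41 and Usp10 at -1.74, are the members called by edgeR, and the 76 open points were not called.

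The other lists of the pathway held no call by edgeR. Of 12 ubiquitin and E1 genes, 0 were called, with a median log2 fold change of 0.21. The ubiquitin precursor Ubb and the main E1, Uba1, had log2 fold changes of 0.22 and 0.21. Of 13 ubiquitin-like modifiers and SENP proteases 0 were called, with a median of -0.25, and Nedd8 had 271 and 283 against 183 and 209 counts (-0.40; edgeR, adjusted p = 0.132). Of 18 cullin-RING genes 0 were called (median -0.13), and Cul5 came closest with 122 and 112 against 70 and 71 counts (-0.63; edgeR, adjusted p = 0.0609). Of 23 ubiquitin ligases with roles in T cells 0 were called (median 0.05): Cblb, a brake on T cell receptor signalling, had 70 and 63 against 59 and 90 counts (0.26), Itch had 34 and 26 against 21 and 31 counts (-0.10), and Rnf128, known as GRAIL, was at 0 in all 4 libraries. Of 18 deubiquitinases with other names 0 were called (median 0.05), and Cyld, which cuts lysine 63 and linear chains, had 120 and 101 against 140 and 151 counts (0.50; edgeR, adjusted p = 0.102). By unadjusted p under 0.05 these 5 lists held, in this order, 2 (16.7%), 1 (7.69%), 5 (27.8%, 4 of them lower), 2 (8.70%) and 2 genes (11.1%), against 15.5% of all genes, and DESeq2 called 0 in each.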

How the data were processed

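RNA of sorted splenic CD4+ T cells was made into 4 libraries with a 3′ mRNA kit (QuantSeq FWD). The labels and the paper name different RNA extraction kits. The deposited table holds the authors' raw read counts for each Ensembl gene on GRCm38, and the submitters' processing notes name STAR 2.5.2a and HTSeq 0.6.0. They also deposited rlog values on a log2 scale, made from these counts with DESeq2, which were used here only to find the members and in 1 alternative. The annotation release and the strand option are not given in the sources used here. The paper says that molecular identifiers served to assess PCR duplicates and remove amplification bias. Whether they were collapsed in the deposited counts is not given. Per-sample columns left unused numbered 0.

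Genes summing to 10 counts or more were fitted in R 4.3.3 by edgeR 4.0.16 (TMM factors, glmQLFit with the legacy fit, glmQLFTest, group as the only term), with Benjamini-Hochberg adjustment over all 9608 genes tested and a threshold of 0.05. Each SE is the fold change on the log2 scale divided by the root of its F value. Alternatives were DESeq2 1.42.0, limma 3.58.1, other scalings and filters, the replicate number as a block, and omission of each library. The fit was tested on simulated counts. Depth was 644679 to 730330 counts a library. Of 47643 identifiers, 419 had no symbol. Gene positions and shared 50-base stretches came from the GRCm38 annotation and promoters from RefSeq (GRCm38.p6, 250 bases before to 50 after the start, first start listed).

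Members, gene lists and rules were chosen with earlier results of these data known. Members named with values were Ube2c, Ube2s, those called, those without overlap between groups with an absolute log2 fold change of at least 0.5 and a mean of at least 10 counts, the 5 most abundant Ube2 and Usp and the 2 most abundant Otu and Uch, and the 3 with the lowest p among those not called. Others are named to complete a role, and genes of the other lists that were not called were named after their values were seen. The values of a few genes, 1 of them a member, are not reported here, though they stay in the counts over all members and lists.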

Additional observations from a re-analysis of the deposited data

How the results depend on the processing

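Ube2c was called higher in every alternative run, leaving out each library included. The number of genes called was 393, and 112 with DESeq2, which left 4284 genes without an adjusted p, and it ranged from 201 to 264 when each library was left out in turn. The number of members called was 2, and 1 (Ube2c) with at least 10 counts in every library, a filter under which Usp10 was not tested, and 1 with DESeq2. It ranged from 1 to 2 when each library was left out. The log2 fold change of Ube2s changed sign with library size only (-0.026), with no filter (-0.0017) and with bias-adjusted deviances (-0.0034), and ranged from -0.60 to 1.13 when each library was left out. With library size only, Ube2d3 stood at -0.013 and Ube2j1 at -0.017. When each library was left out, the median of the 77 other members ranged from -0.104 to -0.028, and signs turned in members near 0: Ube2r2 (-0.018 to 0.28), Uchl5 (-0.21 to 0.035), Usp16 (-0.12 to 0.19), Usp34 (-0.29 to 0.038), Otulin (-0.53 to 0.085), Ube2j1 (-0.17 to 0.16), Ube2k (-0.15 to 0.26), Usp25 (-0.23 to 0.081) and Ube2d3 (-0.015 to 0.045). The cause was not tested. Libraries sharing a number showed little shared deviation (correlation 0.0351 over 4965 genes). Count noise at this depth can hide a shared effect of the mouse, so this value does not exclude pairs. The paper calls the libraries it removed a replicate pair. Whether a shared number marks the same mouse is not given in the sources used here. The main fit did not take the numbers as pairs. A replicate block gave 560 calls over all genes and 3 among the members, Ube2c, Usp10 and Usp31 (adjusted p = 0.0464). Depth limits the low members: those under 20 CPM had SEs of at least 0.489.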
